A study of Mus musculus with 8 samples.

Results

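Genes of cholesterol synthesis, of its control by SREBP transcription factors, and of sterol uptake, transport, and efflux were examined in sorted colonic epithelial cells of SPF-Abx mice. The list holds 32 genes and was set by gene function, with earlier results of these data known. Of these, 28 were measured, with 56 probe sets among them, of 18193 genes on the array that have a probe set annotated to a single gene symbol. Acat2, Soat1, Soat2, and Nr1h2 had no such probe set in the array annotation used here and were not analysed. The most variable probe set of a gene, by SD over the 8 arrays, stood for it, and 15 of the 28 members have more than 1 probe set.

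The arrays come from 4 mice colonized with BTWT, the wild-type strain of Bacteroides thetaiotaomicron, and 4 mice colonized with BTΔMAFF, which lacks the MAFF locus of this bacterium. All were male C57BL/6 WT mice given metronidazole and ciprofloxacin beforehand, colonized at 8 wk of age and sampled at 12 wk, after 4 wk with the strain. PI- CD45- EpCAM+ cells were sorted by FACS, and 1 array was hybridized per mouse. No group without B. theta was on these arrays, so a difference has no side that can be called the baseline. The values are log2 values from which the median of the 8 arrays had been subtracted for each probe set. They give differences between mice and no level, so genes cannot be ranked by expression, and the presence of Epcam or the absence of the leukocyte gene Ptprc cannot be read from them. In bulk RNA, fewer cells of a type and less RNA per cell cannot be told apart. The leading principal component carried 29.4% of the variance. On it, BTWT replicate 2 (58.1) and BTΔMAFF replicate 4 (47.0) lay apart from the other 6 arrays (-36.8 to -6.39). Calls that changed without these mice are given with and without them.

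Cells make cholesterol from acetyl-CoA through the mevalonate pathway and a chain of sterol enzymes. When sterol in the endoplasmic reticulum is low, SCAP carries the SREBP proteins to the Golgi, where they are cleaved and released to switch on these enzymes; when sterol is high, the INSIG proteins hold SCAP back. Sterol excess is sensed separately by the liver X receptors (LXR), nuclear receptors that bind oxysterols and switch on transporters that move sterol out of the cell. In the intestinal epithelium, NPC1L1 takes up sterol from the lumen, ABCG5 and ABCG8 return it as a heterodimer, and ABCA1 loads it onto apolipoproteins at the basolateral side.

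The promoters shown next belong to members with the smallest p in the comparison of BTWT and BTΔMAFF, and are given because the LXR and efflux genes differed together. Sequences are from RefSeq on GRCm38.p6, written 5′ to 3′ on the strand of the gene up to the base before its start site. Capitals mark matches, on either strand, to the CCAAT box CCAAT, the E-box CACGTG, or a direct repeat typical of LXR sites (GGTNA and GGTCA with 5 bases between them). The direct repeat was searched after the values had been seen. Abca1 is on chr4:53159896-53160145, minus strand, Insig1 on chr5:28071162-28071411, plus strand, and Nr1h3 on chr2:91195117-91195366, minus strand, for the first of its 2 start sites. Abcg5 and Abcg8 are transcribed away from each other, and the 109 bases on chr17:84683012-84683120 that separate their start sites are shown on the Abcg5 strand, the minus strand.
Abca1: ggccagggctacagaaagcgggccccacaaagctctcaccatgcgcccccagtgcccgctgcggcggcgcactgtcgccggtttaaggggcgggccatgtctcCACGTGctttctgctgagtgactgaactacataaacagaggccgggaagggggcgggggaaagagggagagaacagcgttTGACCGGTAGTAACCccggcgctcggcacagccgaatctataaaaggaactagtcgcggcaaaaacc
Insig1: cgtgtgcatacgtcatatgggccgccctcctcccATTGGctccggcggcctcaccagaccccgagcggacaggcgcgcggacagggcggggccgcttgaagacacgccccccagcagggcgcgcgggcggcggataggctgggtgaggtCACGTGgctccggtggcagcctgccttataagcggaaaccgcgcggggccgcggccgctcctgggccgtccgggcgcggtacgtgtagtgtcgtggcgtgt
Nr1h3: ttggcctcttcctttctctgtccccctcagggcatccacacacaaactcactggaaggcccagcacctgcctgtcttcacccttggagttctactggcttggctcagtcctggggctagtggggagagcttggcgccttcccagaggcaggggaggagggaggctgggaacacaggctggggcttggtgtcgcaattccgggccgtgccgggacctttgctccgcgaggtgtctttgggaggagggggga
Abcg5 and Abcg8: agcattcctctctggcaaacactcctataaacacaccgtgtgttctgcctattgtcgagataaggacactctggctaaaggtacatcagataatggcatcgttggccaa

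The Abca1 promoter held the direct repeat from position -67 to -53 relative to the start site, on the opposite strand, together with an E-box. Among the 26 members with a promoter window (250 bases before to 50 after a start site), the direct repeat was found in 2, Abca1 and Srebf1, against 0.226% of 27025 genes. Both matches read GGTTA where the pattern allows any base in GGTNA. The pattern was not planned and was searched after the values had been seen, so these shares are no test of enrichment. In Srebf1, the gene of SREBP1, the repeat lay at the last of 3 start sites listed, on chr11:60210632-60210660, minus strand.
Srebf1: acgacagTGACCGCCAGTAACCccagcgc
The core of the sterol regulatory element to which SREBP binds, searched as TCACNCCAC, was found in the window of 1 member, Hmgcs1, against 1.44% of genes. It is shown with flanking bases from chr13:119690204-119690232, plus strand.
Hmgcs1: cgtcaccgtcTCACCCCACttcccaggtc
The CCAAT box, bound by the SREBP partner NF-Y, was found in 21 of the 26 members against 41.1% of genes, and the E-box in 6 against 8.09%. These matches describe letters in short windows and are not evidence of binding.

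The largest differences among the members were in the LXR and efflux genes, all of which were lower in BTWT-colonized mice. Nr1h3, Abca1, Abcg5, and Abcg8 were 3.63-, 2.98-, 2.53-, and 3.60-fold lower in BTWT, each with an unadjusted p below 0.05 in limma, although Abcg8 missed that threshold in the methods' t-test and with arrays centred on their median. Insig1, which retains SCAP in the endoplasmic reticulum, was 1.77-fold higher. The 3 synthesis enzymes Sqle, Fdft1, and Pmvk were lower by smaller margins (log2 fold changes of -0.86, -0.49, and -0.32), and the genes of the SREBP proteins themselves did not reach that threshold. In all, 7 of the 28 members (25.0%) were lower at an unadjusted p under 0.05, where 3.37% of all genes were, and 1 was higher, where 2.35% were. The shares of all genes include probe sets that hardly varied. With probe sets of low SD left out, 6 members (21.4%, without Pmvk) were lower, where 5.43% of 10495 genes were. On the higher side it was 1 member (3.57%), where 3.96% of these genes were. Once p-values were adjusted over 45037 probe sets (Benjamini-Hochberg), limma called 0 members and 0% of probe sets. Without adjustment 2295 probe sets had a p under 0.05 in limma, and in the methods' t-test 1721 did and 0 passed after adjustment. The groups did not overlap in 3 members lower in BTWT, against 1.84% of genes, and in 1 member higher in BTWT, against 1.3% of genes. The median log2 difference, BTWT minus BTΔMAFF, was -0.29 over the members and 0.02 over all genes. Because the list was chosen with earlier results of these data known, these shares and medians describe it and do not test it.

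**Figure D1:**
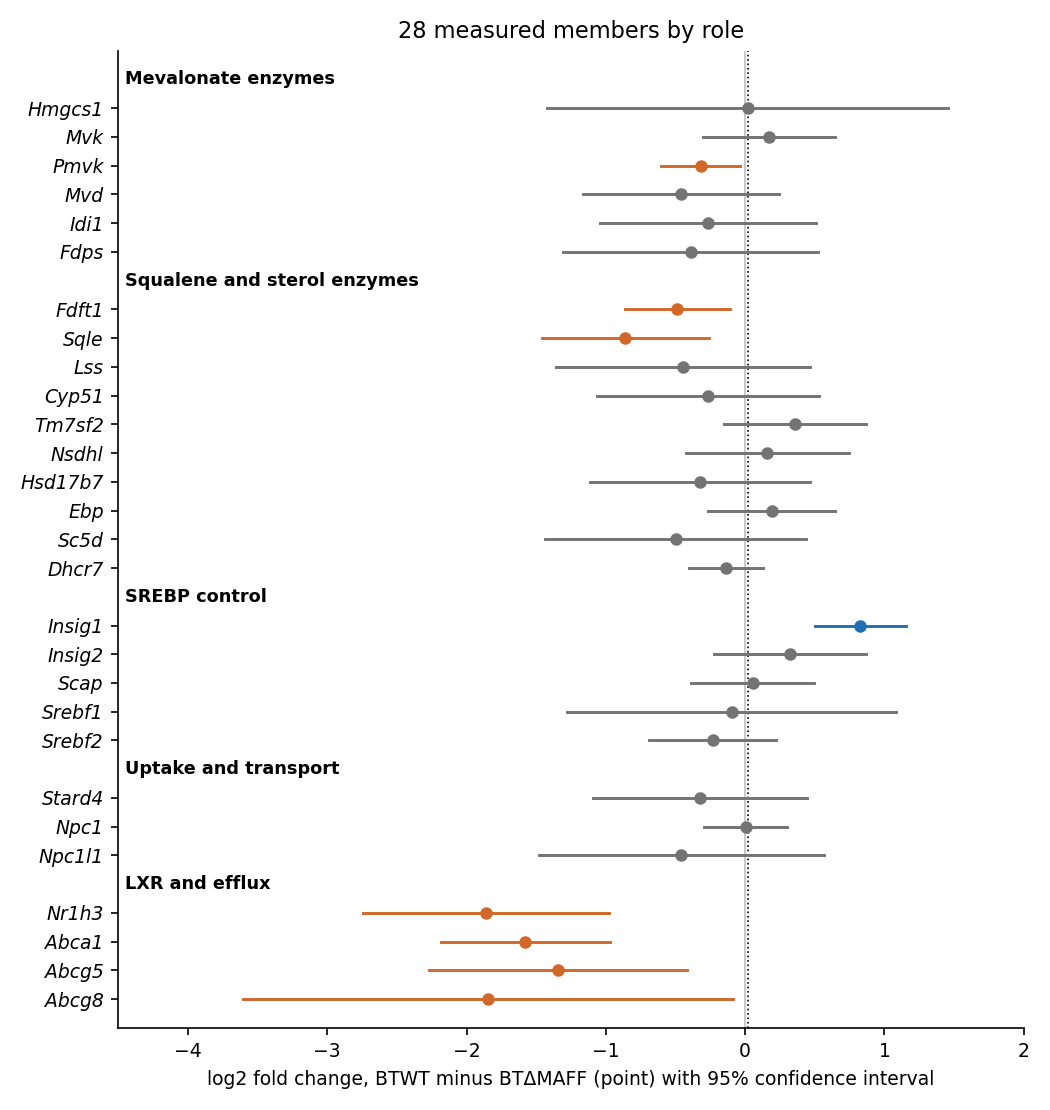
Log2 fold change of each of the 28 measured members, BTWT minus BTΔMAFF, with its 95% confidence interval from limma, grouped by role. Orange (lower in BTWT) and blue (higher in BTWT) mark members with an unadjusted p under 0.05, and the dotted line is the median of all genes (0.02). The 4 LXR and efflux genes lie furthest to the left and Insig1 furthest to the right.

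Nr1h3 encodes LXRα, the receptor that senses oxysterols. Its centred log2 values were -1.57, -0.83, -0.23, and -1.64 in BTWT replicates 1 to 4 and 1.06, 1.24, 0.23, and 0.65 in BTΔMAFF replicates 1 to 4. All 4 BTWT mice lay below all 4 BTΔMAFF mice, with BTWT replicate 3 and BTΔMAFF replicate 3 closest to each other. In limma the log2 fold change was -1.86 (standard error 0.37; adjusted p = 0.373). Nr1h3 ranked 19 of 18193 genes by the size of its change.

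Abca1, the transporter that exports cholesterol to apolipoprotein A-I, was at -0.55, -1.18, -0.40, and -0.76 in BTWT and at 0.40, 1.08, 1.36, and 0.60 in BTΔMAFF. The groups were separate, and the log2 fold change was -1.58 (standard error 0.26, adjusted p = 0.236 from limma). A second probe set also separated the groups, with a log2 fold change of -1.21, although its highest mouse was BTΔMAFF replicate 4 (1.48) and not replicate 3. In the remaining one the groups overlapped, and the log2 fold change was -0.16 with an unadjusted p of 0.166 from limma.

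Abcg5 and Abcg8 together form the transporter that returns sterol to the lumen, and they are neighbours with start sites on opposite strands. Abcg5 was at -0.39, -1.60, -0.21, and -0.13 in BTWT and at 0.60, 1.17, 1.14, and 0.13 in BTΔMAFF. Abcg8 was at -0.34, -2.03, 0.03, and -0.03 in BTWT and at 1.11, 2.02, 2.38, and -0.50 in BTΔMAFF. The mice stood in nearly the same order in both genes: BTWT replicate 2 was lowest, BTΔMAFF replicates 2 and 3 were highest, and BTΔMAFF replicate 4 was the lowest of its group. Abcg5 did not overlap between the groups, whereas BTΔMAFF replicate 4 placed Abcg8 below 3 of the 4 BTWT mice. Log2 fold changes were -1.34 for Abcg5 (standard error 0.39) and -1.85 for Abcg8 (standard error 0.74). Their adjusted p were 0.687 and 0.828 from limma.

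The mean of these 4 genes ranged from -1.41 to -0.20 in BTWT mice and from 0.22 to 1.38 in BTΔMAFF mice. With 1 mouse left out, Nr1h3, Abca1, and Abcg5 kept an unadjusted p under 0.05 in all 8 cases, but Abcg8 did so only without BTWT replicate 3 or BTΔMAFF replicate 4. Without both arrays that lay apart, all 4 genes were lower in BTWT and none overlapped between the groups.

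**Figure D2:**
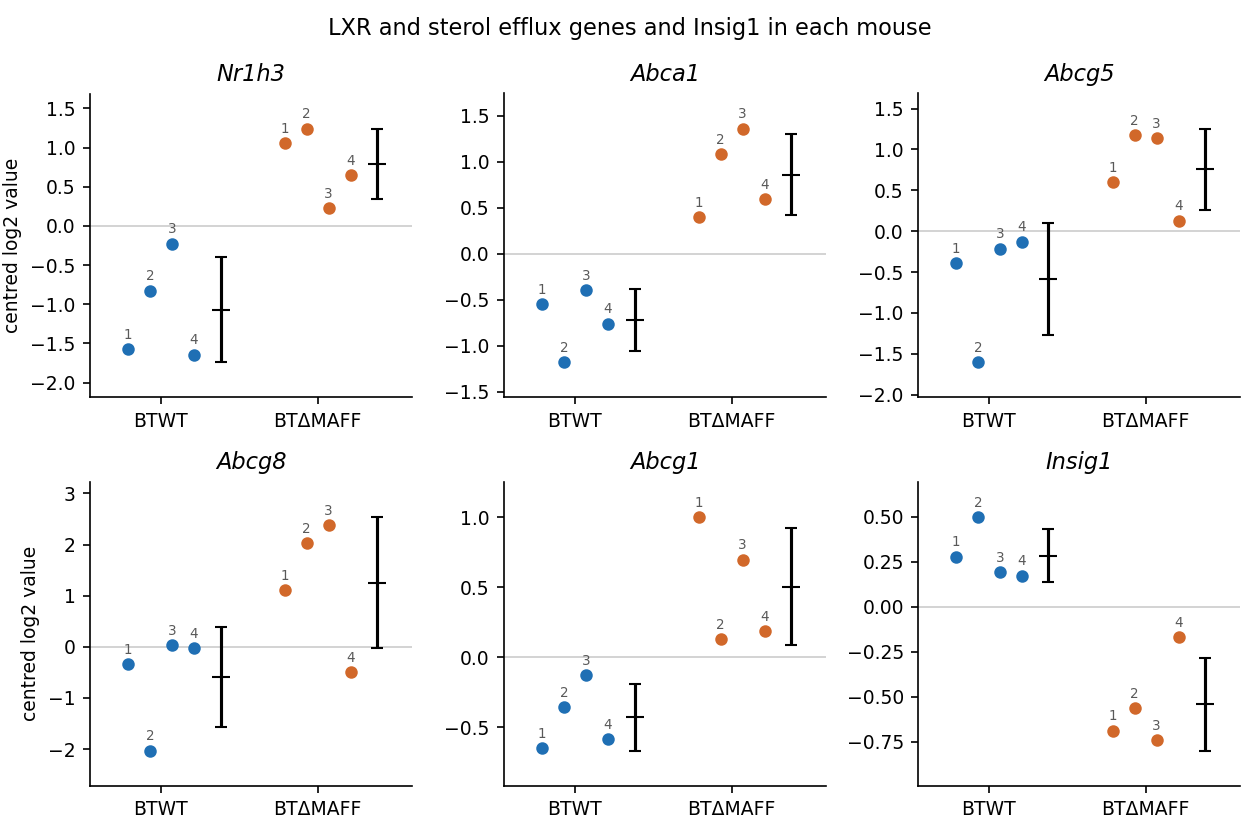
Centred log2 value (vertical axis) of 6 genes in each mouse (points, numbered by replicate), and beside them the group mean with its SD (black marks, n = 4). Nr1h3, Abca1, Abcg5, and Abcg1 are lower in every BTWT mouse and Insig1 is higher in every BTWT mouse, while BTΔMAFF replicate 4 overlaps the BTWT mice in Abcg8.

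Further genes that LXR is known to switch on did not all reach an unadjusted p under 0.05. Abcg1, a sterol transporter that is not among the 32 genes, was lower in every BTWT mouse (-0.65, -0.36, -0.13, and -0.59) than in any BTΔMAFF mouse (1.00, 0.13, 0.70, and 0.19), and its log2 fold change was -0.93 (standard error 0.22, adjusted p = 0.503 from limma). Averaged over its 2 probe sets, the log2 fold change of Abcg1 was smaller, at -0.46. Srebf1, Scd1, Mylip, and Lpcat3, named here after their values were seen, had log2 fold changes of -0.10, -0.84, -0.19, and 0.06. None of them reached this threshold. The 95% confidence interval was -2.20 to 0.51 for Scd1, -0.71 to 0.33 for Mylip, and -0.72 to 0.84 for Lpcat3. For Srebf1, whose window held the direct repeat shown above, the interval was -1.28 to 1.09. Whether the repeat goes with the differences was not tested.

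Among the genes that control SREBP, Insig1 was the one that passed the unadjusted threshold. INSIG1 holds SCAP in the endoplasmic reticulum and is itself a known SREBP target. It was at 0.28, 0.50, 0.19, and 0.17 in BTWT and at -0.69, -0.57, -0.74, and -0.17 in BTΔMAFF. Every BTWT mouse was above every BTΔMAFF mouse, and BTΔMAFF replicate 4 was the one nearest to the other group. The log2 fold change was 0.83 (standard error 0.14, adjusted p = 0.243 from limma), between 0.76 and 0.95 with 1 mouse left out. Insig1 has 1 probe set.

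Insig2, the related retention protein, was at 0.46, 0.02, -0.03, and 0.00 in BTWT and at -0.12, 0.14, 0.00, and -0.85 in BTΔMAFF, so that the groups overlapped. Its log2 fold change was 0.32, with an unadjusted p of 0.207 from limma. The other 2 probe sets of Insig2 had the same sign, at 0.43 and 0.46, and the one at 0.46 had an unadjusted p of 0.0131 from limma. Averaged over its 3 probe sets, Insig2 was at 0.40, for which limma gave an unadjusted p of 0.0110.

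Srebf2 encodes SREBP2, the main activator of the cholesterol enzymes. It was at -0.49, -0.21, 0.42, and -0.07 in BTWT and at 0.26, 0.01, 0.32, and -0.01 in BTΔMAFF, with a log2 fold change of -0.23 and a 95% confidence interval of -0.69 to 0.22. BTWT replicate 3 was the highest of all mice, and without it the groups no longer overlapped and the log2 fold change was -0.40, with an unadjusted p of 0.0223 from limma. The other probe set of Srebf2 had a log2 fold change of 0.01. Srebf1, which mainly serves fatty acid synthesis, was at 0.24, -1.35, 0.89, and -0.22 in BTWT and at 0.61, 0.22, -0.29, and -0.60 in BTΔMAFF. The BTWT mice spanned the whole range of values. Scap was at 0.03, -0.39, 0.29, and -0.03 in BTWT and at -0.10, 0.06, 0.20, and -0.47 in BTΔMAFF, with a log2 fold change of 0.05 (95% confidence interval -0.39 to 0.50).

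Most synthesis enzymes did not pass the unadjusted threshold, and mice differed widely within a group. Of 16 measured enzymes, 3 (18.8%) were lower and none was higher at an unadjusted p under 0.05, against 3.37% and 2.35% of all genes. A negative log2 fold change was found for 11 (68.8%, against 33.2% of all genes) (median -0.29, range -0.86 to 0.36). The 33.2% does not hold for more variable genes. With probe sets of low SD left out, the median log2 fold change of the 10495 remaining genes was -0.003, against 0.019 over all genes. Of these genes 5.43% were lower, and Pmvk no longer passed the threshold. With 1 mouse left out, the median of the enzymes lay between -0.48 (without BTΔMAFF replicate 3) and -0.13 (without BTWT replicate 3). Sqle encodes squalene epoxidase, a rate-limiting step after the mevalonate pathway. It was at 0.11, -0.72, -0.44, and -0.76 in BTWT and at 0.71, 0.64, -0.11, and 0.39 in BTΔMAFF. BTWT replicate 1 and BTΔMAFF replicate 3 were the 2 mice that overlapped. The log2 fold change was -0.86 (standard error 0.26, adjusted p = 0.690 from limma).

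Fdft1, squalene synthase, commits the pathway to sterols. Its values were 0.01, -0.21, -0.43, and -0.36 in BTWT and 0.31, 0.04, -0.01, and 0.62 in BTΔMAFF, and BTWT replicate 1 and BTΔMAFF replicate 3 again overlapped, here narrowly. The log2 fold change was -0.49 (standard error 0.16, adjusted p = 0.802 from limma). Of 3 other probe sets, 1 was similar (-0.43), while the other two were at 0.01 and hardly varied (SD over all arrays 0.018). Pmvk, phosphomevalonate kinase, was at 0.06, -0.29, -0.12, and -0.10 in BTWT and at 0.19, 0.22, 0.47, and -0.06 in BTΔMAFF, with a log2 fold change of -0.32 (standard error 0.12, adjusted p = 0.828 from limma). Its unadjusted p passed 0.05 in only 2 of the 8 cases with 1 mouse left out, those without BTWT replicate 1 and without BTΔMAFF replicate 4. Sqle and Fdft1 passed in all 8, but without both arrays that lay apart their unadjusted p were 0.0717 and 0.0592 from limma.

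**Figure D3:**
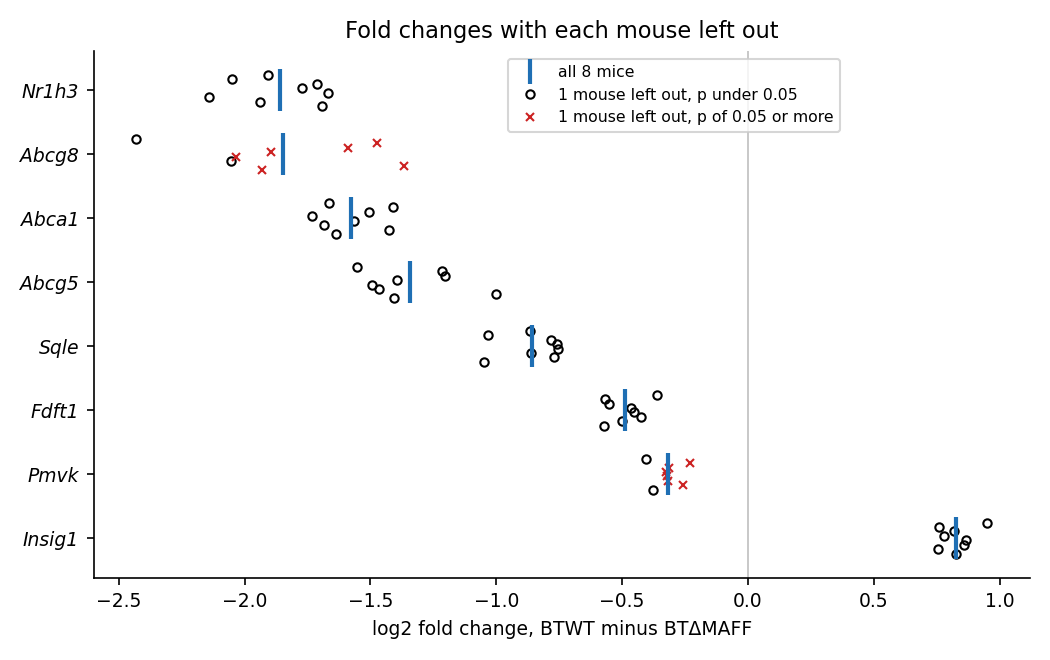
Log2 fold change (horizontal axis) of the 8 members with an unadjusted p under 0.05 over all mice (bars) and with each mouse left out in turn (open circles where p stayed under 0.05, crosses where it did not). No gene changes sign, and crosses appear for Abcg8 and Pmvk.

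The other enzymes did not reach an unadjusted p under 0.05 in either direction. In the mevalonate pathway, Mvd, Fdps, and Idi1, which form and condense isoprenoid units, had log2 fold changes of -0.46, -0.39, and -0.27, and mevalonate kinase (Mvk) had one of 0.17. Among the later sterol enzymes, Sc5d, Lss, Hsd17b7, Cyp51, and Dhcr7 had log2 fold changes of -0.50, -0.45, -0.33, -0.27, and -0.14. Ebp, Nsdhl, and Tm7sf2 had log2 fold changes of 0.19, 0.16, and 0.36. These values rested on single mice in several cases: without 1 mouse, Hsd17b7 was at 0.02 (BTWT replicate 3), Cyp51 at 0.00 and Idi1 at -0.06 (BTΔMAFF replicate 1), and Sc5d at -0.17 and Dhcr7 at -0.03 (BTΔMAFF replicate 2). Likewise Fdps was at -0.13 without BTWT replicate 3, Mvd at -0.28 without BTΔMAFF replicate 1, Mvk at 0.03 without BTWT replicate 4, Ebp at 0.07 without BTΔMAFF replicate 4, and Nsdhl at 0.03 without BTΔMAFF replicate 3. Tm7sf2 lay between 0.22 (without BTWT replicate 1) and 0.54 (without BTWT replicate 2). Mice differed within groups by more than the groups did: the mean of the 16 enzymes ranged from -0.23 to 0.26 in BTWT and from -0.23 to 0.44 in BTΔMAFF. BTWT replicate 1 and BTΔMAFF replicate 1 were the highest of their groups, and BTWT replicate 3 and BTΔMAFF replicate 3 the lowest.

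**Figure D4:**
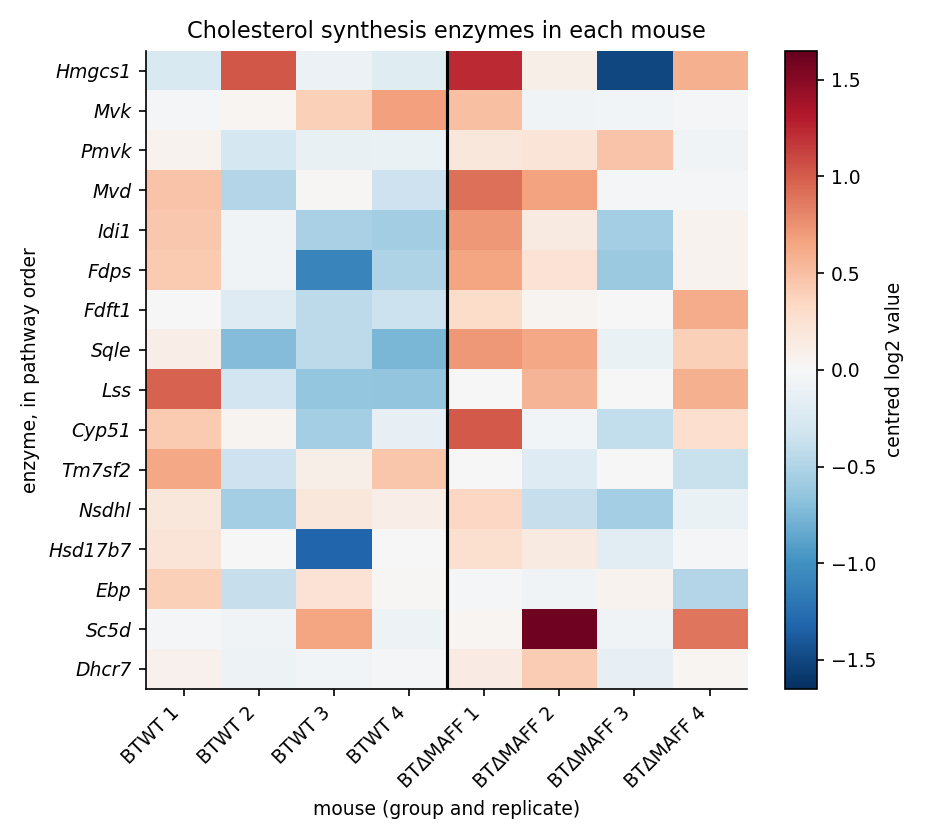
Centred log2 value (color) of 16 synthesis enzymes (rows, in pathway order) in each mouse (columns), with BTWT mice left of the line and BTΔMAFF mice right of it. Fdft1 and Sqle are below 0 in BTWT replicates 2, 3, and 4, and the most extreme cells belong to Sc5d in BTΔMAFF replicate 2 (1.61), Hmgcs1 in BTΔMAFF replicate 3 (-1.51), and Hsd17b7 in BTWT replicate 3 (-1.31).

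For Hmgcs1, which makes the precursor of mevalonate, the result depended on the probe set. The most variable one had a difference of 0.02 on the log2 scale (standard error 0.61), and BTΔMAFF mice alone spanned -1.51 to 1.23. The other 4 were all lower in BTWT by their point estimates (-0.36, -0.43, -0.48, and -0.55), and the last of these had an unadjusted p of 0.00885 from limma. Lss, lanosterol synthase, was similar over its 3 probe sets (-0.45, -0.52, and -0.44), and the one at -0.44 had an unadjusted p of 0.0300 from limma. Without BTWT replicate 1, which at 0.97 was far above the other BTWT mice, the first of them was at -0.82, for which limma gave an unadjusted p of 0.00574. Signs also differed between the probe sets of Sc5d (-0.50, 0.02, and 0.17), Mvk (0.17 and -0.09), and Fdps (-0.39 and 0.02). Over all members, 17 of 28 other probe sets had the sign of the one that stood for the gene.

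**Figure D5:**
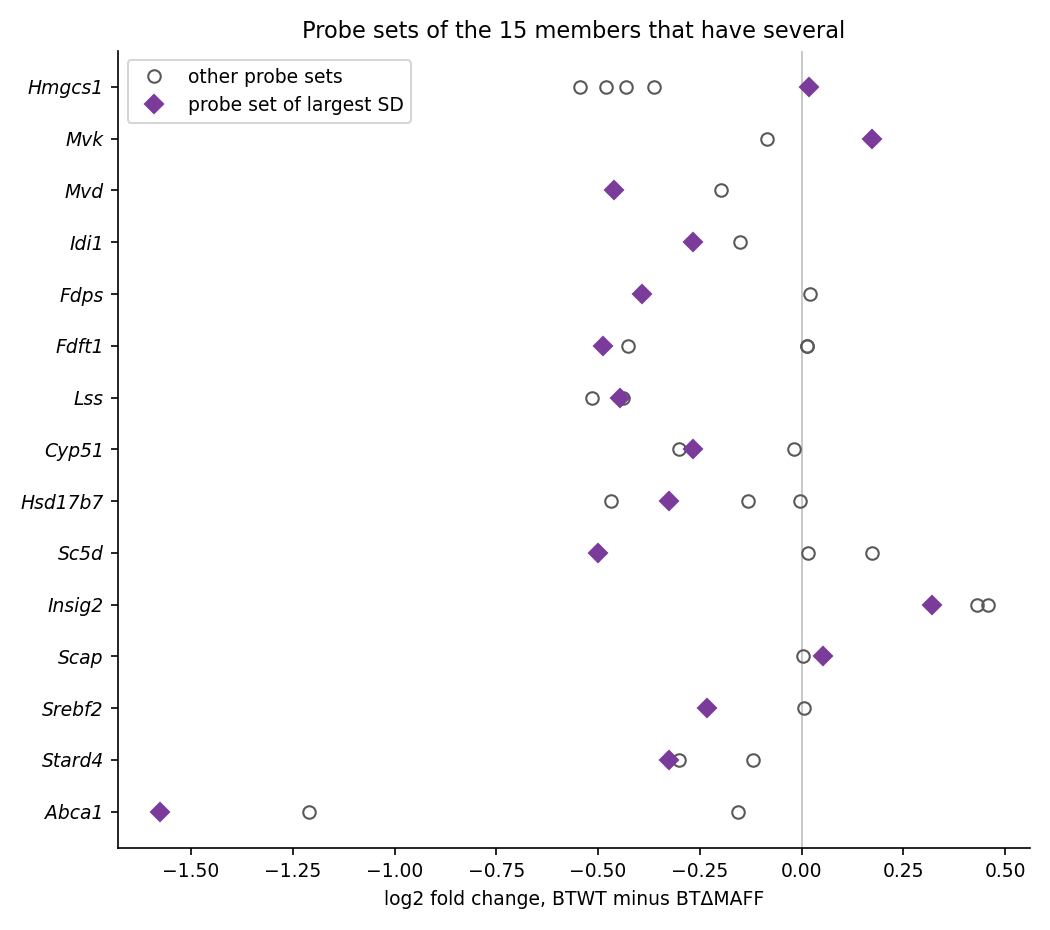
Log2 fold change (horizontal axis), BTWT minus BTΔMAFF, of every probe set of the 15 members that have several. Diamonds are the probe sets with the largest SD, which stand for the gene, and circles are the others. Hmgcs1 has 4 circles between -0.55 and -0.36 beside a diamond at 0.02, and the 3 probe sets of Insig2 are all above 0.

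Genes of uptake and intracellular transport were not called. Npc1l1, the luminal sterol importer, had a log2 fold change of -0.46 with a 95% confidence interval of -1.48 to 0.56; BTΔMAFF replicate 2 was at 1.72, the other 7 mice lay between -0.37 and 0.36, and without that mouse the log2 fold change was -0.03. Stard4, which carries cholesterol between membranes, had one of -0.33 (-1.09 to 0.44), which was -0.07 without BTWT replicate 3 and -0.11 without BTΔMAFF replicate 4. Npc1, which releases cholesterol from lysosomes, had one of 0.00 (-0.30 to 0.30).

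Other genes of the pathway were described with lists set by function, likewise with earlier results of these data known. Of 26 further genes of sterol synthesis, transport, and regulation, 3 (11.5%) were lower in BTWT and none was higher (unadjusted p under 0.05; 3.37% and 2.35% of all genes), with a median log2 fold change of 0.03. The 3 were Abcg1, Ggps1, which makes geranylgeranyl diphosphate (-0.52), and Msmo1, a sterol methyl oxidase (-0.59). Of 18 genes of fatty acid synthesis known as SREBP targets, 1 (5.56%) was lower and none was higher, near the share of all genes, with a median of -0.09. It was Acaca, acetyl-CoA carboxylase, at -0.33, and fatty acid synthase (Fasn) was at -0.06. Averaged over its probe sets, Abcg1 was at -0.46 and kept an unadjusted p under 0.05. Acaca, Ggps1, and Msmo1, averaged likewise, no longer reached it. Nor did Ggps1 without both arrays that lay apart (0.0624) or without BTWT replicate 2 (0.0680), Acaca without BTWT replicate 2 (0.0528), or Msmo1 without BTΔMAFF replicate 4 (0.0946), each an unadjusted p from limma. With 1 mouse left out, Abcg1 was the only one of these genes to keep an unadjusted p under 0.05 in all 8 cases. Ggps1 kept it in 5 of the 8, Acaca in 4, and Msmo1 in 2. In the methods' t-test the unadjusted p of Msmo1 was 0.0539.

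Markers of other cells and states were read beside these results, again at an unadjusted p under 0.05, which 3.37% of all genes passed on the lower side and 2.35% on the higher side. With lists of 8 to 12 genes, a single gene is 8.33% or more of a list. None of 11 leukocyte genes had an unadjusted p under 0.05, and their mean ranged from -0.01 to 0.04 in BTWT and from -0.01 to 0.14 in BTΔMAFF. All but Csf1r hardly varied, with an SD over all arrays of 0.019 (Cd3e) to 0.078 (Cd8a). Such flat values do not show that leukocyte content was equal. Csf1r was at 1.75 in BTΔMAFF replicate 3 and 0.29 in BTΔMAFF replicate 2, against -0.03 to 0.01 in BTWT. Of 12 stromal and vascular genes, 1 was higher, with means of -0.32 to 0.27 and -0.01 to 0.58. Of 12 genes of mature colonocytes, 2 were lower and 1 was higher (-0.09 to 0.14 and -0.14 to 0.04), and of 8 general epithelial genes, 2 were lower (-0.06 to 0.02 and 0.02 to 0.10). Of 10 goblet cell genes, 2 were lower and 1 was higher (-0.40 to 0.14 and -0.05 to 0.40), and of 11 crypt-base stem cell genes, 1 was higher (-0.04 to 0.52 and -0.23 to 0.33). Of 11 genes of proliferation, 8 were higher in BTWT, with means of -0.07 to 0.59 and -0.66 to -0.12. Of 12 circadian clock genes, 8 were lower and 1 was higher in BTWT (-0.68 to -0.27 and 0.30 to 0.80). Proliferation and clock genes thus moved with the group as the LXR and efflux genes did, and their part in the sterol results was not tested. As a measure of RNA quality, Gapdh control probe sets at the 3-prime end were set against those at the 5-prime end, and the log2 difference was -0.11 ± 0.14 (SD, n = 4) in BTWT and 0.01 ± 0.16 (SD, n = 4) in BTΔMAFF (two-sided exact permutation test, p = 0.314). For beta-actin it was -0.04 ± 0.02 (SD, n = 4) in BTWT against 0.03 ± 0.05 (SD, n = 4) in BTΔMAFF, for which this exact test gave p = 0.0857. Cage and time of sampling were not given in the sources used here.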

How the data were processed

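Amplified cDNA of sorted colonic epithelial cells was hybridized to Affymetrix mouse genome arrays, 1 per mouse. The authors deposited log2 values with the median of the 8 arrays subtracted for each of 45101 probe sets. GeneSpring was used and, per the submitters' processing notes, Affymetrix Expression Console. The steps of background correction and normalization were not given in the sources used here. Precision is limited by the number of arrays.

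Here 64 control probe sets were left out and a linear model without covariates was fitted to the other 45037 (limma 3.58.1, functions lmFit and eBayes, under R 4.3.3). Differences are BTWT minus BTΔMAFF, and p-values were adjusted over all fitted probe sets by the Benjamini-Hochberg method. Fold changes are ratios of geometric means. Genes were taken from probe sets with 1 gene symbol (34945), and the most variable one stood for its gene. The members and lists were chosen with earlier results of these data known. Each mouse's values were to be given for members with an unadjusted p under 0.05 or with groups that did not overlap, and for 5 SREBP control genes, and up to 4 genes of each further pathway list were to be named by smallest p. Promoter windows are from RefSeq and cover 26 of the 32 genes. Alternatives were other normalizations, a replicate block, array weights, mice left out, the methods' t-test, a robust prior, a filter on SD, and the mean over the probe sets of a gene. The plan allowed for a filter on level, which centred values do not have, so SD was used.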

Additional observations from a re-analysis of the deposited data

Results flagged for a closer look

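In groups of 4 mice, 6 of 56 groups had a mouse far from the others by Dixon's ratio, the gap to the nearest mouse over the whole range. Chance gives about 1 in 20 groups. The ratio was 0.875 for Hmgcs1 in BTWT replicate 2 (1.03, others -0.25 to -0.09), 0.955 for Mvk in BTΔMAFF replicate 1 (0.50, others -0.05 to -0.03), and 0.890 for Nsdhl in BTWT replicate 2 (-0.56, others 0.11 to 0.19). It was 0.862 for Hsd17b7 in BTWT replicate 3 (-1.31, others 0.00 to 0.21), 0.936 for Sc5d in BTWT replicate 3 (0.65, others -0.08 to -0.04), and 0.904 for Insig2 in BTWT replicate 1 (0.46, others -0.03 to 0.02). None of the 8 members with an unadjusted p under 0.05 was among them.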

How the results depend on the processing

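Under all 17 alternatives, Nr1h3, Abca1, Abcg5, and Insig1 kept their direction and an unadjusted p under 0.05. The median of the 4 LXR and efflux genes stayed between -1.87 and -1.40. With array weights, 12 members were lower (42.9%, where 10.1% of all genes were) and 3 higher (10.7%, below the 16.7% of all genes), and 3 (Insig1, Abca1, and Abcg5) passed the adjusted threshold, as did 510 of all probe sets; 2 mice carried most of the weight, BTWT replicate 3 (4.68) and BTΔMAFF replicate 2 (4.36), and no other exceeded 1.33. Averaged over the probe sets of a gene, 2 members were higher (Insig1 and Insig2, 7.14%, against 2.81% of all genes). In this fit 1 member, Abca1, was among the 11 of 18193 genes that passed the adjusted threshold. For Abca1 the adjusted p was 0.0421 from limma, with a range of 0.0291 to 0.599 over the alternatives. Without both arrays that lay apart, 2 members were higher (Insig1 and Tm7sf2; 7.14%, near the 7.55% of all genes), 5 did not overlap on the lower side (5.84% of all genes did not), and 2 on the higher side, where 37.3% of all genes did not overlap, so that this count says nothing about the members. With 1 mouse left out, 5 to 7 members were lower and 1 to 2 higher, 3 to 7 did not overlap on the lower side and 1 to 2 on the higher side. In the same fits 2.57% to 5.16% of all genes were lower, 1.84% to 5.68% were higher, and 2.44% to 4.96% did not overlap on the lower side, which 3 mice in a group make easier. On the higher side this share was 1.68% to 2.80%, except that it was 35.9% without BTΔMAFF replicate 4. The median over all probe sets was -0.030 to -0.013 in BTΔMAFF replicates 1 to 3, 0.041 in BTΔMAFF replicate 4, and -0.007 to 0.038 in BTWT. The 7 arose without BTWT replicate 1, when Pmvk, Fdft1, Sqle, and Lss joined, and Tm7sf2 was higher without BTWT replicate 2. The median over all members was lowest (-0.46) when BTΔMAFF replicate 3 was left out and highest (-0.14) when BTWT replicate 3 was. Deviations from the group means over all probe sets correlated at 0.392 between the mice numbered 1 and at -0.040, 0.033, and -0.266 between those numbered 2, 3, and 4. These values do not settle whether the numbers pair the mice. The mean of the synthesis enzymes was highest in replicate 1 and lowest in replicate 3 of both groups. With the replicate block 6 members were lower (21.4%, against 3.76% of all genes) and 1 higher (3.57%, near the 3.14% of all genes). Fdps joined, and Pmvk and Abcg8 dropped out. For Fdps the unadjusted p from limma was 0.00593 with the block and 0.345 without it. In the methods' t-test and with arrays centred on their median, 6 members (21.4%) were lower, without Abcg8. The share of all genes was 2.53% in the t-test and 3.29% with centred arrays. The causes of these changes were not tested. Signal over background cannot be read from centred values.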
